A study of Mus musculus with 4 samples.

Results

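The genes described here are 43 genes that encode subunits and factors of RNA polymerase I and assembly factors of the ribosome, measured by RNA sequencing in cultured mouse EpSCs, that is, epidermal stem cells, from which the epidermis is renewed. They were chosen by symbol as known ribosome biogenesis genes, but with earlier results of these data known. The share of them that passed the test is therefore a description and not independent evidence. All 43 symbols were found among the 54532 rows of the count table, and all 43 were among the 14056 genes with enough counts to be tested. The treated cultures were C57BL/6 EpSCs given ALP at 30 μg/mL for 48 h, and the control cultures were C57BL/6 EpSCs given 0.06% DMSO for 48 h. ALP is taken to be the burdock (Arctium lappa L.) polysaccharide that the series title names, and all cultures were grown in EpiLife medium with HKGS supplement. The labels do not say whether the ALP cultures also received DMSO, nor whether a group's 2 libraries stem from different cultures or mice. P-values therefore measure only the spread between these libraries, which may be technical.

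A ribosome is built in the nucleolus, where RNA polymerase I transcribes a long precursor that holds the 18S, 5.8S and 28S ribosomal RNAs. Small nucleolar ribonucleoprotein particles (snoRNPs) guide 2'-O-methylation and pseudouridylation of that precursor, and a large complex called the small-subunit processome folds and cuts its 5' part. The pre-40S and pre-60S particles then mature separately and are exported to the cytoplasm. Growing cells spend much of their RNA synthesis on this pathway, and in skin the progenitors of the basal layer are cells that divide and grow.

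The ALP libraries A and B held 17430345 and 15766244 counts, and the control libraries A and B held 17415047 and 17360445. Their letters are names alone and pair nothing. The ALP pair differed from each other by more than the control pair, with a chi-square per degree of freedom of 22.4 against 5.92, and pairs across the groups gave 53.6 to 147. The cells carried the basal keratinocyte markers, whose 7 genes summed to 35901 and 29288 CPM (counts relative to library size, on the usual per-million scale) in ALP and to 49028 and 48947 CPM in control. Of these 7 markers 2 were higher (Itga6 and Itgb4) and 2 were lower (Col17a1 and Trp63) in ALP. Krt5 and Krt14 held most of the sum. Krt15 had 57.9 and 1.71 CPM in ALP, against 255 and 203 CPM in control, and did not pass (edgeR adjusted p = 0.120).

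The promoters of these genes are shown first, because the genes moved together and their start regions are the sequence they can be compared by. RefSeq promoter windows (mouse build GRCm38.p6, from 250 bases before to 50 bases after a gene's start) matched 38 of the 43 genes, with 42 windows. Fbl, Rrp12, Npm1, Gnl2 and Bop1 had no entry. The motif searched was CACGTG, the canonical E-box, which is its own reverse complement and so reads the same on both strands. It occurred in 8 of the 38 genes (21.1%), against 11.7% of the 10049 tested genes with a window and 8.09% of all 27025 genes with a window. The 9 sites are printed 5′ to 3′ on the gene's strand with the motif in capitals and up to 10 bases on each side.
Grwd1, chr7:45830740-45830765, minus strand: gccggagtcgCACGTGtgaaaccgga
Ltv1, chr10:13193094-13193119, minus strand: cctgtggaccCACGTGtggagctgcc
Nop2, chr6:125131813-125131838, plus strand: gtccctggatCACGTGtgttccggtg
Pes1, chr11:3963967-3963992, plus strand: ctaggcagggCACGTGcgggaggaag
Rrn3, chr16:13780474-13780499, plus strand: gcgccaaggtCACGTGcacacgcctc
Rrn3, chr16:13780641-13780666, plus strand: acgctctgctCACGTGggccgcgtcc
Tsr1, chr11:74898094-74898119, plus strand: acttggtgcaCACGTGgactgcagaa
Utp20, chr10:88826765-88826787, minus strand: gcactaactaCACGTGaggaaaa
Wdr43, chr17:71616222-71616247, plus strand: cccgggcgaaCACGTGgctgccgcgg
The first base of the motif lay between position -215, in Rrn3, and position 38, in Utp20, relative to the start. Of the 8 genes 7 were higher in ALP and Ltv1 did not pass the test. Of all 43 genes 39 were higher, a similar share, against 18.0% of all genes tested. A link between the motif and the rise was not tested. A match is a description of these letters and not a binding site, and the other 30 matched genes lacked the letters in this window only.

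Rrn3 was the gene with 2 sites, and Nop2 had a single site within 100 bases upstream of its start. Their whole upstream stretches of 250 bases are given for context, again with the motif in capitals.
Nop2, chr6:125131633-125131882, plus strand: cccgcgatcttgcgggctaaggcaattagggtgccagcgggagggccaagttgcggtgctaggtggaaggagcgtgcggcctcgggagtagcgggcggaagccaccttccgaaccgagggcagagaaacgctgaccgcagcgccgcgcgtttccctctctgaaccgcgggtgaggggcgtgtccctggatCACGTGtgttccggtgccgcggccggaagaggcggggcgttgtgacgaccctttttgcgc
Rrn3, chr16:13780449-13780698, plus strand: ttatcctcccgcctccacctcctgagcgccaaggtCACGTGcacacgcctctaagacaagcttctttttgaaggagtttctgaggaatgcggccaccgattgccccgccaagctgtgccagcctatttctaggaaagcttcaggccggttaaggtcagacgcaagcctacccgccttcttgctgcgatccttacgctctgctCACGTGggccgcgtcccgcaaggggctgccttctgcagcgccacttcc
The windows of the 38 matched genes held a median of 22 CG dinucleotides per 300 bases. That was close to the 20 of the tested genes, and the median of all windows was 7.

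In ALP-treated EpSCs 39 of the 43 genes rose, 0 fell and 4 did not pass the test (edgeR's quasi-likelihood F test, Benjamini-Hochberg adjusted p under 0.05 over all 14056 genes). That is 90.7% of the 43 genes called higher, against a background of 18.0% of all genes tested called higher and 12.9% called lower. The median log2 fold change was 0.85, against -0.003 over all genes tested, with values from -0.28 for Polr1c to 1.31 for Grwd1. The log2 fold change was above 0 for 42 of the 43, against 49.8% of all genes tested. Of the 43 genes 10 were called higher by at least 2-fold, against 5.78% of all genes tested. At an unadjusted p under 0.05, 1 of the 43, Polr1c, was lower. In either direction 41 of the 43 had such a p, against 6552 of the 14056 genes tested. DESeq2's Wald test and limma-voom called the same 39 genes higher and 0 lower.

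The libraries of the groups were apart for nearly all of these genes. Both ALP libraries lay above both control libraries for 41 of the 43, against 38.2% of all genes tested. Polr1c lay below in both ALP libraries, and the groups overlapped for Taf1d. With control replicate A or control replicate B left out, 0 of the 43 genes passed and so did 0 of all genes. The median log2 fold change of the 43 was then 0.81 or 0.85, against -0.007 or -0.001 over all genes tested. Without the filter on low counts 0 genes passed either, with a smallest adjusted p of 0.0524 and 41 of the 43 at an unadjusted p under 0.05. Of the 25280 genes in that fit, 7068 had such an unadjusted p.

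Together the 43 genes took 0.486% and 0.603% of all counts in ALP, against 0.335% and 0.330% in control. Their summed level was 4897 and 6147 CPM in ALP and 3301 and 3271 CPM in control, scaled by TMM. Nucleolin (Ncl) and nucleophosmin (Npm1) made up much of this sum. Without them, the other 41 genes summed to 3424 and 4201 CPM in ALP and to 2174 and 2204 CPM in control. In RNA from whole cultures, more cells with a high level and more RNA per cell cannot be told apart.

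**Figure D1:**
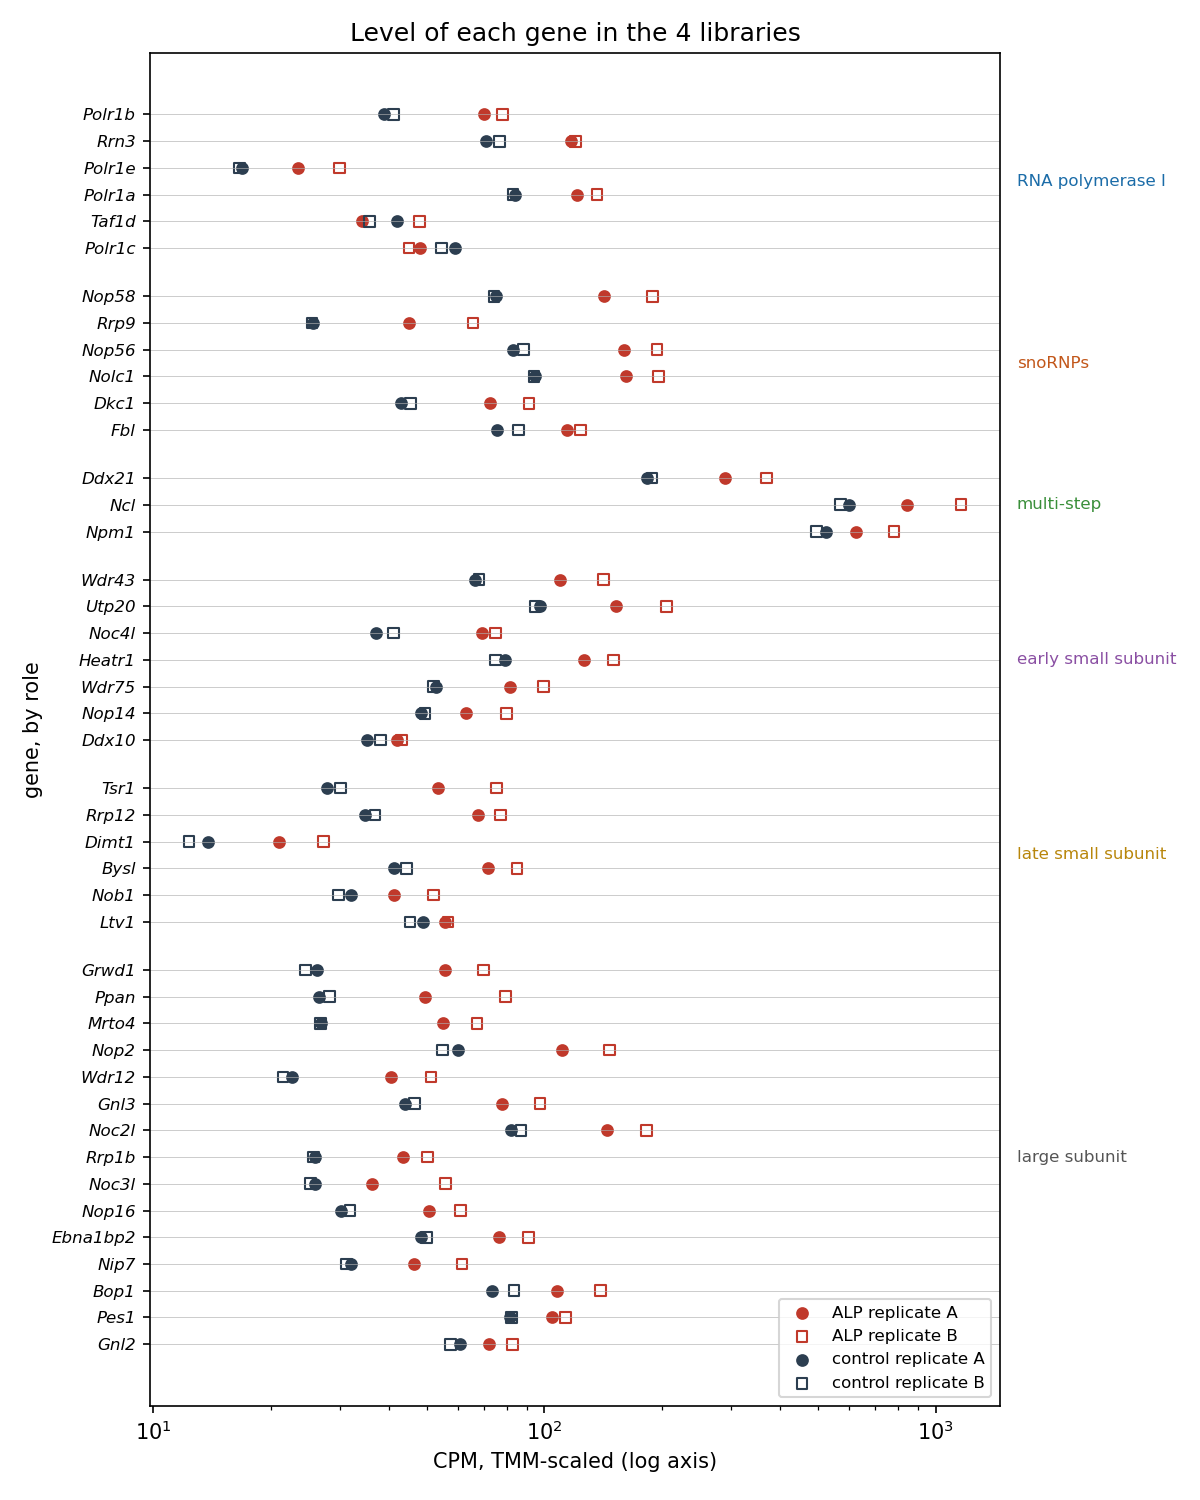
Level of each of the 43 genes in the 4 libraries (x axis, TMM-scaled CPM on a log axis; y axis, genes grouped by role; 1 point per library, coloured by group). For 41 genes both ALP points lie to the right of both control points; Polr1c lies to the left and Taf1d overlaps.

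RNA polymerase I itself showed the most mixed group. Of its 6 genes 4 rose, with a median log2 fold change of 0.65 and values from -0.28 to 0.89. Polr1b, on chromosome 2 (129100995 to 129126594, GRCm38), encodes the second-largest subunit, which forms the active centre with the largest one. It had 70.1 and 78.2 CPM in ALP, against 38.9 and 41.1 CPM in control. This was the largest rise among the 6, with a log2 fold change of 0.89 ± 0.10 (SE, n = 2 each; edgeR adjusted p = 0.0149, the smallest adjusted p in the fit).

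Rrn3, on chromosome 16 (13780708 to 13814839), encodes the initiation factor that brings the polymerase to the ribosomal DNA promoter. It had 117 and 119.9 CPM in ALP, against 71.1 and 76.9 CPM in control, so its ALP libraries were closer to each other than those of most of the 43 genes (log2 fold change 0.68 ± 0.09, edgeR adjusted p = 0.0149). Polr1a, which encodes the largest catalytic subunit and lies on chromosome 6 (71909053 to 71984935), had 121 and 136 CPM in ALP, against 83.9 and 83.2 CPM in control. Its log2 fold change was 0.62 ± 0.09, with an edgeR adjusted p of 0.0151. Polr1e, which encodes a subunit of the heterodimer that attaches to the enzyme's core, rose by a log2 fold change of 0.67 ± 0.16 (edgeR adjusted p = 0.0321).

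Polr1c, on chromosome 17 (46243920 to 46248054), encodes a subunit that RNA polymerases I and III share. It had 48.0 and 45.1 CPM in ALP, against 58.9 and 54.5 CPM in control. Both ALP libraries were the lower ones, but the log2 fold change of -0.28 ± 0.10 did not pass (edgeR adjusted p = 0.0767). Without ALP replicate A it was -0.34 with an adjusted p of 0.0212, which did pass. Taf1d, which encodes a TBP-associated subunit of the promoter selectivity factor SL1, had 34.1 and 47.8 CPM in ALP, against 42.0 and 35.7 CPM in control. The lowest and the highest of its 4 values were both ALP libraries, and the log2 fold change was 0.08 ± 0.19 (edgeR adjusted p = 0.780). That value turned to -0.18 without ALP replicate B and to -0.03 without control replicate B, was 0.29 without ALP replicate A and 0.19 without control replicate A, and passed in none of these 4 fits. It was 0.04 when libraries were scaled by upper quartile or by library totals alone.

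The snoRNP group moved as a whole. All 6 genes rose, with a median log2 fold change of 0.98 and a range from 0.56 to 1.15. Nop56 and Nop58 encode the paired scaffold proteins of box C/D snoRNPs, which carry the 2'-O-methylation guides. Nop56, on chromosome 2 (130274430 to 130279313), had 159.6 and 194 CPM in ALP, against 83.0 and 88.4 CPM in control. Nop58, on chromosome 1 (59684971 to 59719044), had 142 and 189 CPM in ALP, against 75.2 and 74.3 CPM in control. In both genes the ALP libraries stood far above the controls, with log2 fold changes of 1.04 ± 0.12 and 1.15 ± 0.15 (edgeR adjusted p = 0.0149 for each).

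Fbl, on chromosome 7 (28169710 to 28179269), encodes fibrillarin, the methyltransferase of the same particles. It had 114 and 123 CPM in ALP, against 75.7 and 85.7 CPM in control. This was the smallest rise of the snoRNP group, with a log2 fold change of 0.56 ± 0.10 (edgeR adjusted p = 0.0181). Nolc1, which encodes the nucleolar phosphoprotein Nopp140 that accompanies snoRNPs, had 162 and 196 CPM in ALP, against 94.7 and 94.1 CPM in control, a log2 fold change of 0.92 ± 0.11 (edgeR adjusted p = 0.0149). Rrp9, a protein of the U3 particle, and Dkc1, the pseudouridine synthase of box H/ACA snoRNPs, rose by log2 fold changes of 1.12 ± 0.19 and 0.89 ± 0.13 (edgeR adjusted p = 0.0171 and 0.0151).

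Nucleolin, nucleophosmin and the RNA helicase Ddx21 act at several steps and were the most abundant of the 43. The deposited length of a gene covers its annotated exons together, 2665 bases for Npm1 and 10188 bases for Ncl. The expressed transcript may be shorter, so the order of genes on a per-length scale is uncertain. On that scale (RPKM, CPM divided by the gene's length in kilobases), Npm1 averaged 265 RPKM in ALP and 191 RPKM in control. Ncl averaged 98.6 RPKM in ALP and 57.6 RPKM in control, and Ddx21 averaged 63.6 RPKM in ALP and 35.9 RPKM in control. All 3 genes rose.

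Ncl, on chromosome 1 (86344719 to 86359400), had 846 and 1162 CPM in ALP, against 602 and 571 CPM in control. The ALP libraries differed from each other about as much as the lower of them did from control, and the log2 fold change was 0.78 ± 0.16 (edgeR adjusted p = 0.0245). Npm1, on chromosome 11 (33152287 to 33163206), had 626 and 783 CPM in ALP, against 524 and 496 CPM in control. Its log2 fold change of 0.47 ± 0.13 passed narrowly (edgeR adjusted p = 0.0443), fell to 0.31 without ALP replicate B, and missed the threshold under upper-quartile scaling (adjusted p = 0.0558) and under library totals alone (0.0509). Ddx21 had 289.7 and 369 CPM in ALP, against 183 and 188 CPM in control, a log2 fold change of 0.83 ± 0.13 (edgeR adjusted p = 0.0155).

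Of the 7 genes of the early small-subunit processome 6 rose, with a median log2 fold change of 0.84 and a range from 0.21 to 0.90. Heatr1, the counterpart of yeast Utp10, had 126 and 150.3 CPM in ALP, against 79.2 and 74.9 CPM in control (log2 fold change 0.84 ± 0.11). Noc4l, whose yeast counterpart binds Nop14, had 69.1 and 74.9 CPM in ALP, against 37.0 and 41.1 CPM in control (0.88 ± 0.11). Wdr75, the counterpart of yeast Utp17, had 81.9 and 99.4 CPM in ALP, against 52.8 and 52.0 CPM in control (0.79 ± 0.12). In each of the 3 the lower ALP library was clearly above the higher control library, and edgeR's adjusted p was 0.0149, 0.0149 and 0.0151 in that order.

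Utp20, Wdr43 and Nop14, which also belong to this assembly, rose by log2 fold changes of 0.90 ± 0.15, 0.90 ± 0.14 and 0.55 ± 0.13, with edgeR adjusted p from 0.0151 to 0.0338. Ddx10, a helicase whose yeast counterpart Dbp4 releases a snoRNA from the precursor, was the member of the group that did not pass. It had 41.9 and 43.1 CPM in ALP, against 35.3 and 38.2 CPM in control. Its ALP libraries were both above control, by a log2 fold change of 0.21 ± 0.10 (edgeR adjusted p = 0.161).

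Maturation of the pre-40S particle gave 5 rises among 6 genes, with a median log2 fold change of 0.88. Tsr1 encodes a GTPase-like factor that holds the late particle in an inactive shape. It had 53.3 and 75.4 CPM in ALP, against 27.8 and 30.0 CPM in control, a log2 fold change of 1.15 ± 0.18 (edgeR adjusted p = 0.0155), with ALP replicate B well above ALP replicate A. Rrp12, needed in yeast for export of both pre-ribosomal particles, had 67.5 and 77.2 CPM in ALP, against 34.8 and 36.8 CPM in control (1.01 ± 0.11, edgeR adjusted p = 0.0149). Bysl, the counterpart of yeast Enp1, had 71.9 and 85.0 CPM in ALP, against 41.2 and 44.4 CPM in control (0.87 ± 0.12, edgeR adjusted p = 0.0150).

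The enzymes of the group also rose: Dimt1, which dimethylates adenosines near the 3' end of 18S rRNA, by a log2 fold change of 0.89 ± 0.18, and Nob1, the endonuclease that makes that end, by 0.60 ± 0.14 (edgeR adjusted p = 0.0215 and 0.0323). Ltv1, a late pre-40S factor, had 55.8 and 56.6 CPM in ALP, against 49.0 and 45.3 CPM in control. Both ALP libraries were above both control libraries, but the log2 fold change of 0.25 ± 0.10 did not pass (edgeR adjusted p = 0.0924).

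The pre-60S assembly factors formed the largest group, and all 15 rose, with a median log2 fold change of 0.86 and a range from 0.39 to 1.31. Grwd1, a histone-binding protein whose yeast counterpart escorts the ribosomal protein L3, showed the largest fold change of the 43 genes. It lies on chromosome 7 (45825223 to 45830944) and had 55.8 and 69.8 CPM in ALP, against 26.2 and 24.5 CPM in control (log2 fold change 1.31 ± 0.14). Mrto4, which occupies the place of the ribosomal stalk protein on the precursor, had 54.9 and 67.3 CPM in ALP, against 26.8 and 26.8 CPM in control (1.19 ± 0.13). Nop2, a cytosine methyltransferase of 28S rRNA on chromosome 6 (125131909 to 125144753), had 111 and 146 CPM in ALP, against 60.1 and 54.9 CPM in control (1.16 ± 0.15). In these 3 genes the lower ALP library was still far above the higher control library, and edgeR's adjusted p was 0.0149 for each.

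The other 12 pre-60S factors lay between 36.2 and 182 CPM in ALP and between 21.5 and 87.2 CPM in control. Their log2 fold changes were 0.39 to 1.24 and their edgeR adjusted p-values 0.0150 to 0.0419. Ppan rose by 1.24 ± 0.23, and its ALP libraries differed most from each other among the 43 genes, with 79.6 CPM in replicate B and 49.5 CPM in replicate A. The PeBoW complex, which is needed to process the 28S precursor, is made of Pes1, Bop1 and Wdr12. Its members rose by unequal amounts, with log2 fold changes of 0.40 ± 0.09 for Pes1, 0.65 ± 0.15 for Bop1 and 1.06 ± 0.15 for Wdr12, and the differences between them were not tested. Per length, Wdr12 was also the lowest of the 43 in control, with 3.84 RPKM in ALP and 1.85 RPKM in control. Its deposited length is 11955 bases. Bop1 had 41.7 RPKM in ALP and 26.6 RPKM in control, and Pes1 had 36.0 RPKM in ALP and 27.2 RPKM in control.

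Gnl3 (nucleostemin) and Gnl2 encode related nucleolar GTPases. Gnl3 rose by a log2 fold change of 0.95 ± 0.13 and Gnl2 by 0.39 ± 0.11, the smallest rise that passed (edgeR adjusted p = 0.0150 and 0.0419). Gnl2 missed the threshold under upper-quartile scaling (adjusted p = 0.0552) and under library totals alone (0.0507). Noc2l and Noc3l, which in yeast pair in the pre-60S particle, rose by 0.95 ± 0.13 and 0.85 ± 0.21. The value of Noc3l was 0.52 without ALP replicate B. Rrp1b, Nop16, Ebna1bp2 and Nip7, further factors of early pre-60S particles, rose by 0.86 ± 0.12, 0.85 ± 0.13, 0.77 ± 0.12 and 0.77 ± 0.16.

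**Figure D2:**
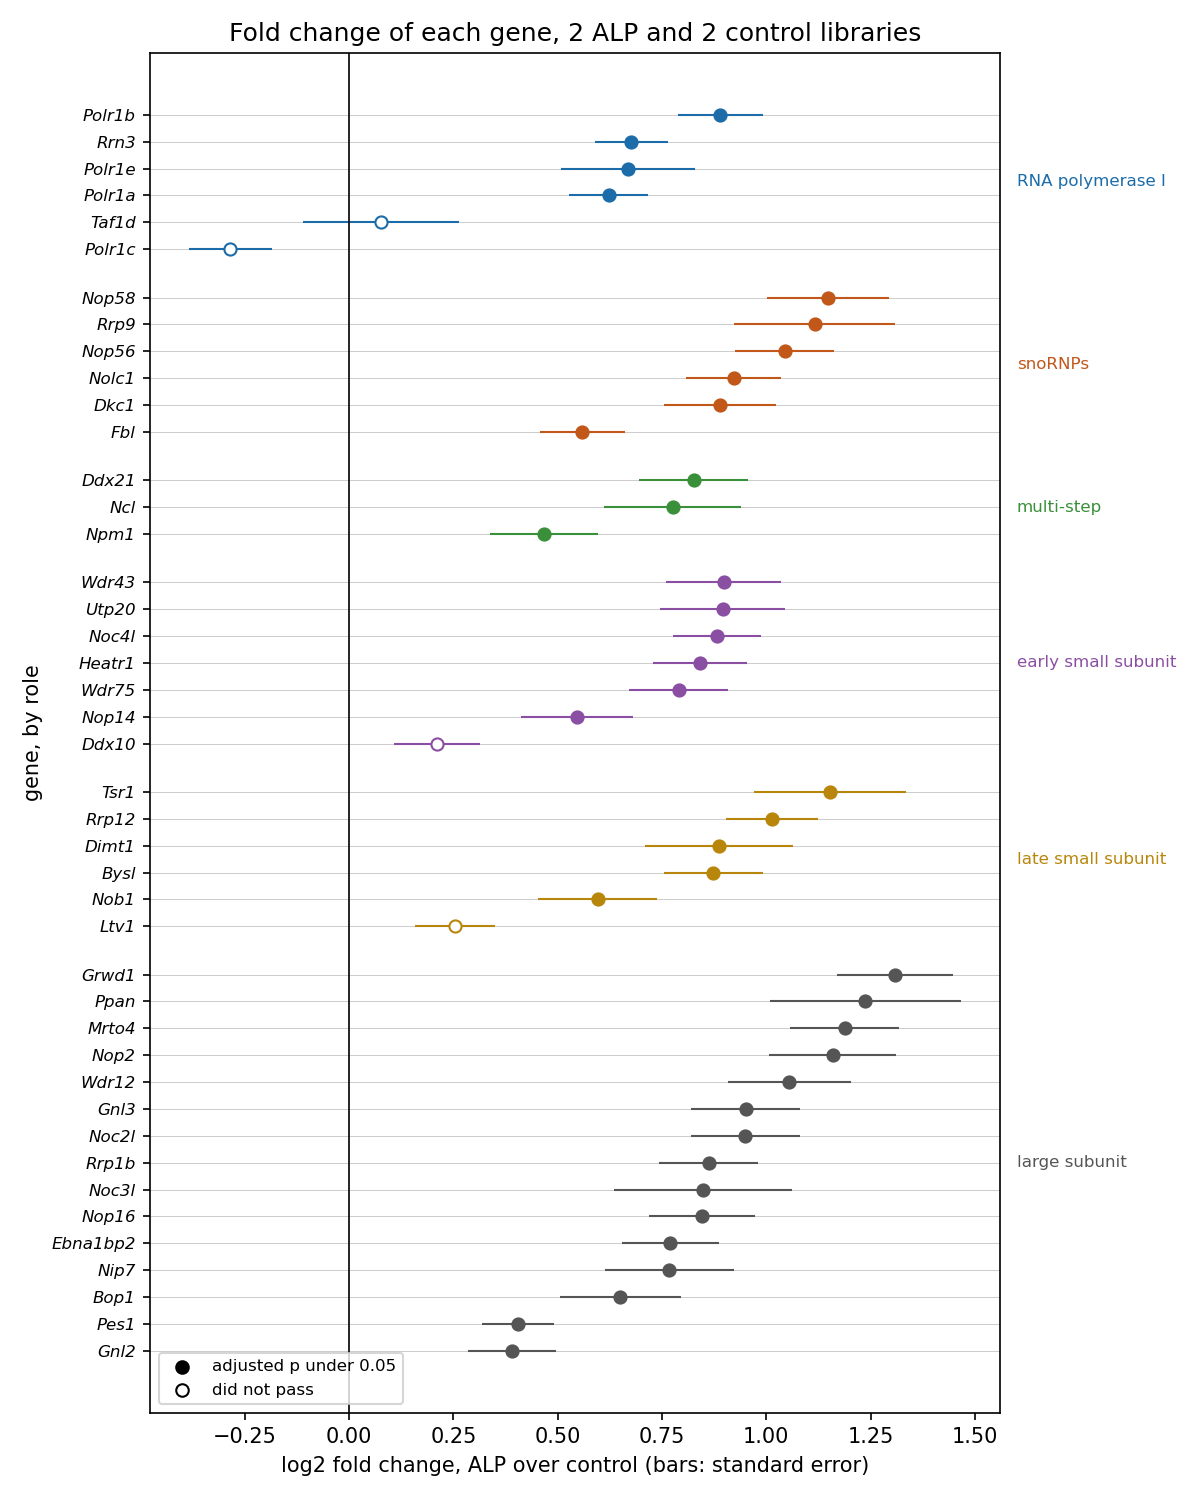
Log2 fold change, ALP over control, of each of the 43 genes (x axis; bars are 1 standard error, 2 ALP and 2 control libraries; y axis, genes grouped by role). Values run from -0.28 for Polr1c to 1.31 for Grwd1, and the 4 genes that did not pass the test are Polr1c, Taf1d, Ddx10 and Ltv1. The standard errors were derived from the F statistic.

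The 2 ALP libraries did not show the rise to the same extent. Relative to the control mean, the median log2 difference over the 43 genes was 0.67 for ALP replicate A, and 0.97 for replicate B of that group. Replicate B was above replicate A for 42 of the 43 genes, against 49.4% of all genes tested, with Polr1c as the exception. Over all genes tested, replicate B was the further of the pair from the control mean for 76.2%. The median fold between the libraries of a pair was 1.25 in ALP and 1.06 in control, and its maximum was 1.61 in ALP, for Ppan, and 1.18 in control.

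**Figure D3:**
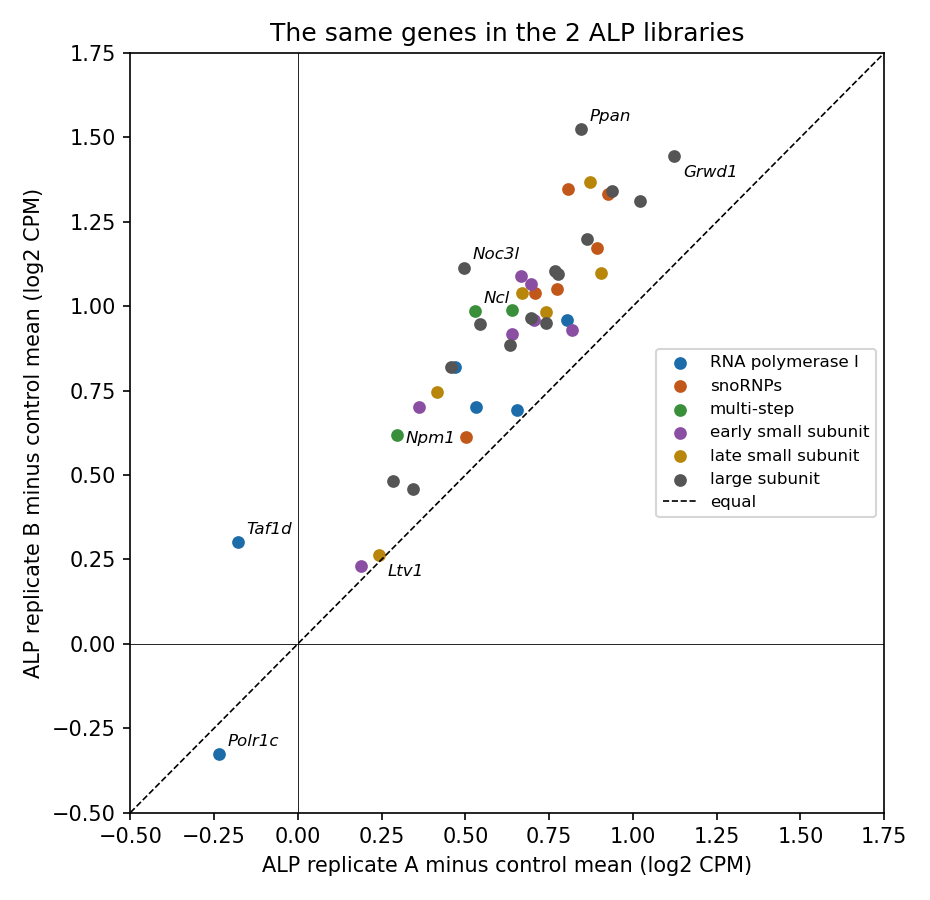
Log2 difference of each gene from the control mean in the ALP libraries A (x axis) and B (y axis), for the 43 genes. Both axes use the same 2 control libraries, so the spread along the diagonal is partly shared; 42 of the 43 points lie above the line of equal values.

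Levels and genome positions were set beside these fold changes. In control the 43 genes ranged from 1.85 RPKM for Wdr12 to 191 RPKM for Npm1, with a median of 11.1 RPKM against 5.54 RPKM over all genes tested, and 38 of the 43 were above that median. Across the 43 genes, which share the same 4 libraries, the control level and the log2 fold change were weakly related (Pearson's r -0.26, Spearman's rho -0.28). The genes lie on 17 chromosomes. Inside 9 of them the GENCODE M21 annotation places 31 snoRNA genes, with 8 in Taf1d, 5 in Nop56 and 4 in Nop58. Of these 9 genes 8 rose, and Taf1d was the one that did not pass. Of all 43 genes 39 rose, a similar share, against 18.0% of all genes tested.

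The sources used here do not say whether counting used strand, so genes that overlap on opposite strands may share reads. At least 5% of the exon bases of 5 genes overlap such a neighbour. Tsr1 shares 32.3% of its exon bases with Srr, which had 540 counts over the 4 libraries against 3104 for Tsr1 and a log2 fold change of -1.03. Dimt1 shares 31.9% with Kif2a, which had 2782 counts against 1244 for Dimt1, so the rise of Dimt1 is uncertain in size. The log2 fold change of Kif2a was 0.34 and did not pass (edgeR adjusted p = 0.0721). Bysl shares 9.37% with Ccnd3, which had 4799 counts against 4062 for Bysl and a log2 fold change of 0.05. The neighbours of Noc2l (Samd11) and Nop14 (Gm15522) had 13 and 4 counts. The pseudogenes Mrto4-ps1 and Mrto4-ps2 had 200 and 12 counts against 2933 for Mrto4.

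The markers of other cell states moved too. The 5 suprabasal keratinocyte markers (Krt1, Krt10, Lor, Flg and Ivl) summed to 821 and 38.3 CPM in ALP, against 3264 and 2689 CPM in control. Krt1 and Krt10 held most of that sum in control, and neither passed (edgeR adjusted p = 0.164 and 0.125). Krt1 had 658 and 19.3 CPM in ALP, against 2546 and 2104 CPM in control. Lor and Flg were lower and Ivl was higher. The simple epithelial keratins Krt8 and Krt18 summed to 27.9 and 46.0 CPM in ALP, against 2.35 and 5.65 CPM in control, and both rose. The 4 endothelial markers summed to 14.5 and 24.5 CPM in ALP, against 6.26 and 7.78 CPM in control, with 2 higher, 1 lower and Cdh5 at 0 to 2 counts per library. The 6 fibroblast markers summed to 7.86 and 4.38 CPM in ALP and 17.7 and 13.7 CPM in control, with Lum at 0. The 5 melanocyte markers summed to 64.2 and 52.7 CPM in ALP and to 62.9 and 57.2 CPM in control. Immune markers were near 0 in all libraries (0.402 and 0.571 CPM in ALP, 0.574 and 0.979 CPM in control), with Cd3e and Cd207 at 0. The part of these shifts in the rise of the 43 genes was not tested.

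The rest of the pathway was described with lists of genes outside the 43. Of 16 further subunits and factors of RNA polymerase I, 0 passed in either direction by edgeR, DESeq2 or limma-voom, with a median log2 fold change of 0.23. At an unadjusted p under 0.05, 3 of them were higher and 1 was lower. Over all 14056 genes tested, 6552 had such a p in either direction. Those with the smallest p-values were the shared subunit genes Polr2e (0.28 ± 0.09) and Polr2h (0.47 ± 0.16) and the SL1 subunit gene Taf1a (0.55 ± 0.18), with edgeR adjusted p between 0.0645 and 0.0669. Values ran from -0.35 to 0.55, and the median was 0.21 without ALP replicate A and 0.13 without control replicate A. Whether this list differs from the 6 polymerase I genes among the 43 was not tested.

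Of 21 genes for RNA polymerase III, which makes 5S rRNA and tRNAs, 4 rose (19.0%) and 1 fell, close to the background of 18.0% of all genes tested called higher and below the 12.9% called lower. The subunit gene Polr3d had 36.0 and 42.0 CPM in ALP, against 16.6 and 17.2 CPM in control (log2 fold change 1.21 ± 0.13, edgeR adjusted p = 0.0149). Polr3b rose by 0.45 ± 0.11 (edgeR adjusted p = 0.0320). Maf1, a repressor of RNA polymerase III, fell to 51.8 and 40.2 CPM in ALP, against 90.4 and 81.3 CPM in control (log2 fold change -0.90 ± 0.15, edgeR adjusted p = 0.0157). Without ALP replicate A 10 of the list were higher and 2 lower, and without ALP replicate B 8 were higher and 1 lower.

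The other snoRNP proteins and their assembly factors gave 9 rises (64.3%) and 0 falls among 14 genes. Over all genes tested 18.0% were called higher and 12.9% lower. The median log2 fold change of the list was 0.69, with 0 lower at an unadjusted p under 0.05. Tcof1 (treacle, 0.87 ± 0.10) and the ATPases Ruvbl1 (1.14 ± 0.16) and Ruvbl2 (0.84 ± 0.13) had the smallest p-values. The ATPases help to assemble box C/D particles. Tcof1 was placed in this list and not in the polymerase I list. Of 46 other small-subunit factors 28 rose (60.9%) and 0 fell, with a median of 0.52 and 2 lower at an unadjusted p under 0.05. In this list 1 gene was called lower by limma-voom and under upper-quartile scaling, and the median was 0.65 without ALP replicate A. Pwp2 (1.20 ± 0.14), Wdr36 (0.88 ± 0.11) and the helicase gene Dhx37 (0.84 ± 0.11) led that list.

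Of 48 other large-subunit factors tested, 33 rose (68.8%) and 2 fell, against 18.0% of all genes tested called higher and 12.9% called lower. Their median was 0.60. Rsl1d1 (0.86 ± 0.09) and Urb2 (0.95 ± 0.12) rose. Nop53, a pre-60S factor that recruits the exosome in yeast, fell to 124 and 111 CPM in ALP, against 223 and 216 CPM in control (log2 fold change -0.90 ± 0.09, edgeR adjusted p = 0.0149). Nsa2 fell by 0.54 ± 0.10 on the log2 scale (edgeR adjusted p = 0.0182). Of 18 genes of the RNA exosome and rRNA nucleases 10 rose and 0 fell, with a median of 0.43 and 0 lower at an unadjusted p under 0.05. Without ALP replicate A the median of the exosome and nuclease list was 0.49. Exosc10 (0.81 ± 0.11), Mphosph6 (1.53 ± 0.22) and Dis3 (0.99 ± 0.15) had the smallest p-values.

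These 5 lists of ribosome biogenesis genes outside the 43, without the polymerase III list, held 142 tested genes, of which 80 rose (56.3%) and 2 fell. The background was 18.0% of all genes tested called higher and 12.9% called lower. The median log2 fold change of the 142 genes was 0.53. The snoRNA host genes gave 1 rise, Snhg15 (0.84 ± 0.19), and 1 fall, Snhg8 (-0.78 ± 0.22), among 11 tested. Both shares were below that background. The median of this list was 0.01, and it was -0.03 under upper-quartile scaling and under library totals alone. Without ALP replicate B the median of this list was -0.16, and without ALP replicate A it was 0.01.

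The listed genes for proteins of the finished ribosome moved the other way. Their list held 50 genes and was not a full set of such genes. Of 49 cytosolic ribosomal protein genes tested 31 fell and 0 rose, with a median log2 fold change of -0.34, against 12.9% of all genes called lower, and 0 were higher at an unadjusted p under 0.05 or by DESeq2 or limma-voom. Rps27 fell by 0.87 ± 0.14, Rpl28 by 0.47 ± 0.08 and Rps14 by 0.51 ± 0.09 on the log2 scale (edgeR adjusted p = 0.0160, 0.0175 and 0.0180). These genes have numerous processed pseudogenes, and the treatment of reads that map to several places is not stated in the sources used here, so their levels are uncertain. Without control replicate A or control replicate B, 0 genes of any of these lists passed. The medians of the 5 ribosome biogenesis lists stayed above 0 and that of the ribosomal proteins below 0 in both of those fits.

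**Figure D4:**
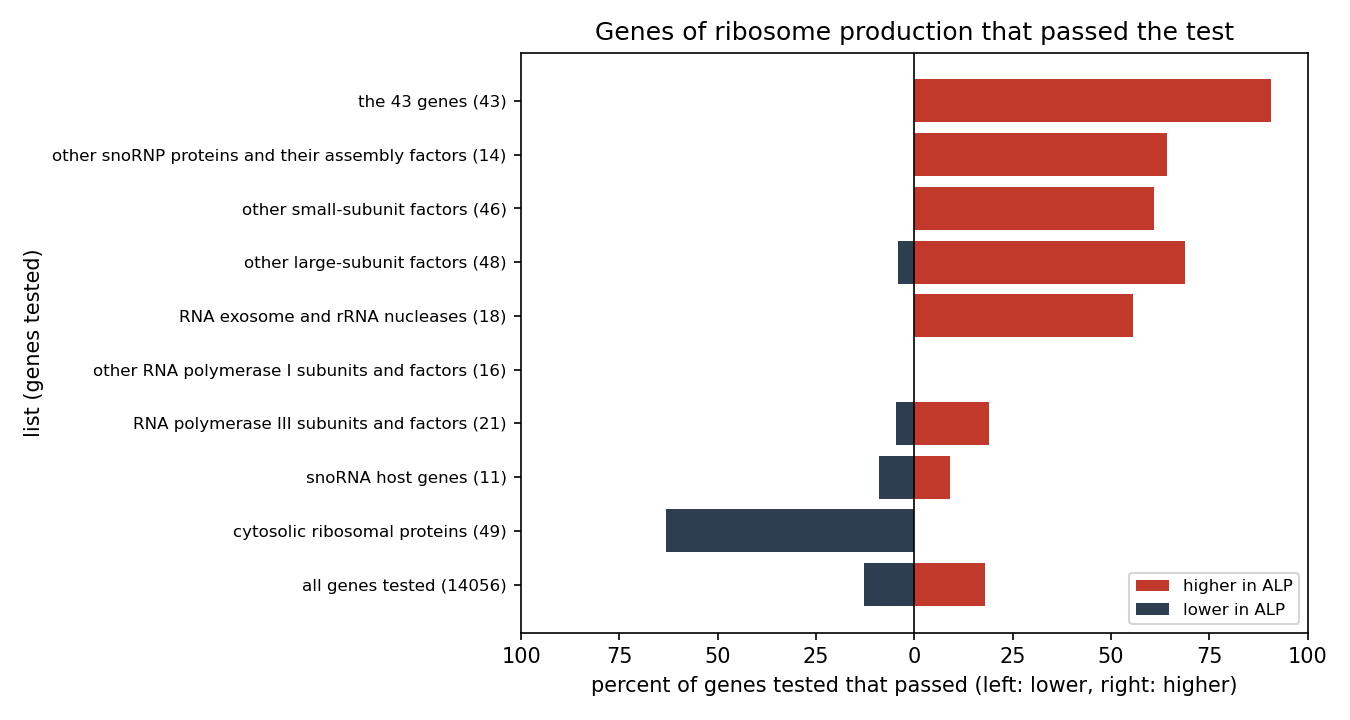
Percent of the tested genes of each list that passed the test (x axis; bars to the right are genes higher in ALP, bars to the left genes lower in ALP; y axis, the 43 genes, the lists of other genes and all genes tested, with the number tested). The 43 genes reach 90.7% higher, all genes tested stand at 18.0% higher and 12.9% lower, and the ribosomal protein genes have bars to the left only.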

How the data were processed

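Total RNA of 4 EpSC libraries was sequenced. Per the submitters' processing notes, alignment used HISAT2 2.0.5 and counting used featureCounts 1.5.0-p3. The notes name GRCh38, whereas the identifiers are mouse and 99.9% of the 54532 occur in GENCODE M21 (GRCm38). The sources used here give neither library kit nor strandedness. The authors deposited raw counts per gene. Their 4 FPKM columns were not used; RPKM was computed from TMM-scaled CPM and the deposited gene length.

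Columns were tied to groups by name, since their replicate numbers differ from the labels. In R 4.3.3, edgeR 4.0.16 kept 14056 genes (filterByExpr, minimum count 10, minimum total 15), scaled by TMM and compared ALP with control by a two-sided quasi-likelihood F test (2 residual degrees of freedom, biological coefficient of variation 0.144). P-values were Benjamini-Hochberg adjusted over all genes tested, and genes were called under 0.05. Marker sums are CPM of library totals. A count of 3 equals 0.172 to 0.190 CPM, which covers counting error only, since reads lacking molecular identifiers need not be independent.

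The 43 genes and all lists were chosen with earlier results of these data known. Values in every library are given for the 3 genes of each role with the smallest p-values, for those that did not pass and for Polr1a, Rrn3, Fbl, Ncl and Npm1. Other pathway genes are named by smallest p-value (up to 3 a list) or if called against their list's median. Alternatives were DESeq2 1.42.0, limma-voom (limma 3.58.1), other scalings, no filter, a threshold of 0.01, an older quasi-likelihood method (chosen after seeing the data) and leaving out each library.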

Additional observations from a re-analysis of the deposited data

How the results depend on the processing

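DESeq2 size factors, DESeq2's Wald test, limma-voom and the older quasi-likelihood method each called 39 of the 43 genes, all higher. Upper-quartile scaling and library totals alone called 37. The counts over all genes tested stayed within 1.5 times the reported ones under these settings, and the medians of the 43 ran from 0.81 to 0.85. Without a filter on low counts, 0 genes passed in either direction, members included, though 7068 genes and 41 of the 43 had an unadjusted p under 0.05. The smallest adjusted p was then 0.0524 over the 25280 genes with any count. At an adjusted p under 0.01, 0 genes passed. Leaving out each library in turn gave 0 to 7518 genes called, 0 to 3872 higher and 0 to 3646 lower. Of the 43 genes 0 to 40 were then called, 0 to 39 higher and 0 to 1 lower, with medians from 0.70 to 0.97. The zeros came without control replicate A or control replicate B, which leaves a lone control library that is assumed to vary like the ALP libraries. Taf1d ranged from -0.18 (without ALP replicate B) and -0.03 (without control replicate B) to 0.29 (without ALP replicate A), so it reversed in 2 of these fits. The cause was not tested. No paired analysis was possible because the columns' replicate numbers differ from those of the labels and the groups share only 1 of them. With 2 libraries a group, a gene that missed the threshold, such as Ltv1 or Ddx10, is not shown to be unchanged.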
